A study of Homo sapiens with 6 samples.

Results

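The hypoxia pathway genes described here are 31 genes chosen by name: the subunits of the hypoxia-inducible factors (HIF), the oxygen sensors and degradation factors that act on them, and non-glycolytic HIF target genes with some of their close relatives. All 31 were found by their symbol among the 28265 gene rows of the deposited tables, and 30 passed the filter on low counts. The remaining gene, EGLN2, had at most 8 counts in a library. Their transcripts were compared between MDA-MB-231, a cell line from a human breast cancer of the triple-negative kind, and its glutamine-independent derivative MDA-MB-231GlnIND, with 3 polyA RNA sequencing libraries in each of the 2 groups. Parental cells grew in RPMI 1640 with glutamine and 10% fetal bovine serum. GlnIND cells had spent more than 6 weeks in glutamine-free RPMI 1640 with 10% dialysed fetal bovine serum. Medium, serum and cell population therefore changed together and cannot be told apart. Both groups were kept under 5% CO2, and no low-oxygen treatment is named for either. The labels do not say whether GlnIND cells are a clone or a population, or whether the libraries of a group came from separate cultures, so the p-values reflect the spread among these libraries alone, and that spread may be technical.

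HIF is a dimer of an oxygen-regulated alpha subunit and the constant partner ARNT. In oxygenated cells prolyl hydroxylases of the EGLN family mark the alpha subunit, VHL binds the marked protein and directs its destruction, and the asparaginyl hydroxylase HIF1AN blocks its activating domain. When oxygen is low the alpha subunit escapes, enters the nucleus and binds hypoxia response elements, short sites with the core ACGTG or GCGTG, near genes for blood vessel growth, pH control, collagen processing and metabolism. Most of this control acts on the protein, so transcript levels of the subunits describe supply and not HIF activity. In breast cancer the pathway is known for matrix stiffening and spread.

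As a group these genes did not move one way. Of the 30 tested genes 6 were higher in GlnIND cells, 9 were lower and 15 were not called, with edgeR's quasi-likelihood test at a Benjamini-Hochberg adjusted p under 0.05. The share called was 50%, against 56.3% of all 13949 tested genes. The share called higher was 20%, against 28.4% of all genes, and the share called lower was 30%, against 27.9%. The median log2 fold change of the tested members was 0.027, beside 0.032 over all tested genes, and only 2 of the called members, VEGFA and STC2, differed by more than 2-fold (15.1% of all tested genes were called with a change that large). STC2 (a secreted stanniocalcin), LOX (a collagen and elastin cross-linking oxidase), ADM (the vasodilator peptide adrenomedullin), NDRG1, CA12 (a membrane carbonic anhydrase) and BHLHE40 (a transcriptional repressor) rose. VEGFA (the main endothelial growth factor), P4HA1, EGLN3, LOXL2, ERO1A, PLOD1, EGLN1, HIF1A and VEGFC fell. All GlnIND libraries lay above all parental libraries for 9 members and below them for 9, against 33.7% and 31.3% of all tested genes, together 65% of all tested genes, and the libraries of the groups overlapped for 12. The 18 members without overlap comprised the 15 called members and VHL, HIF1AN and MXI1.

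**Figure D1:**
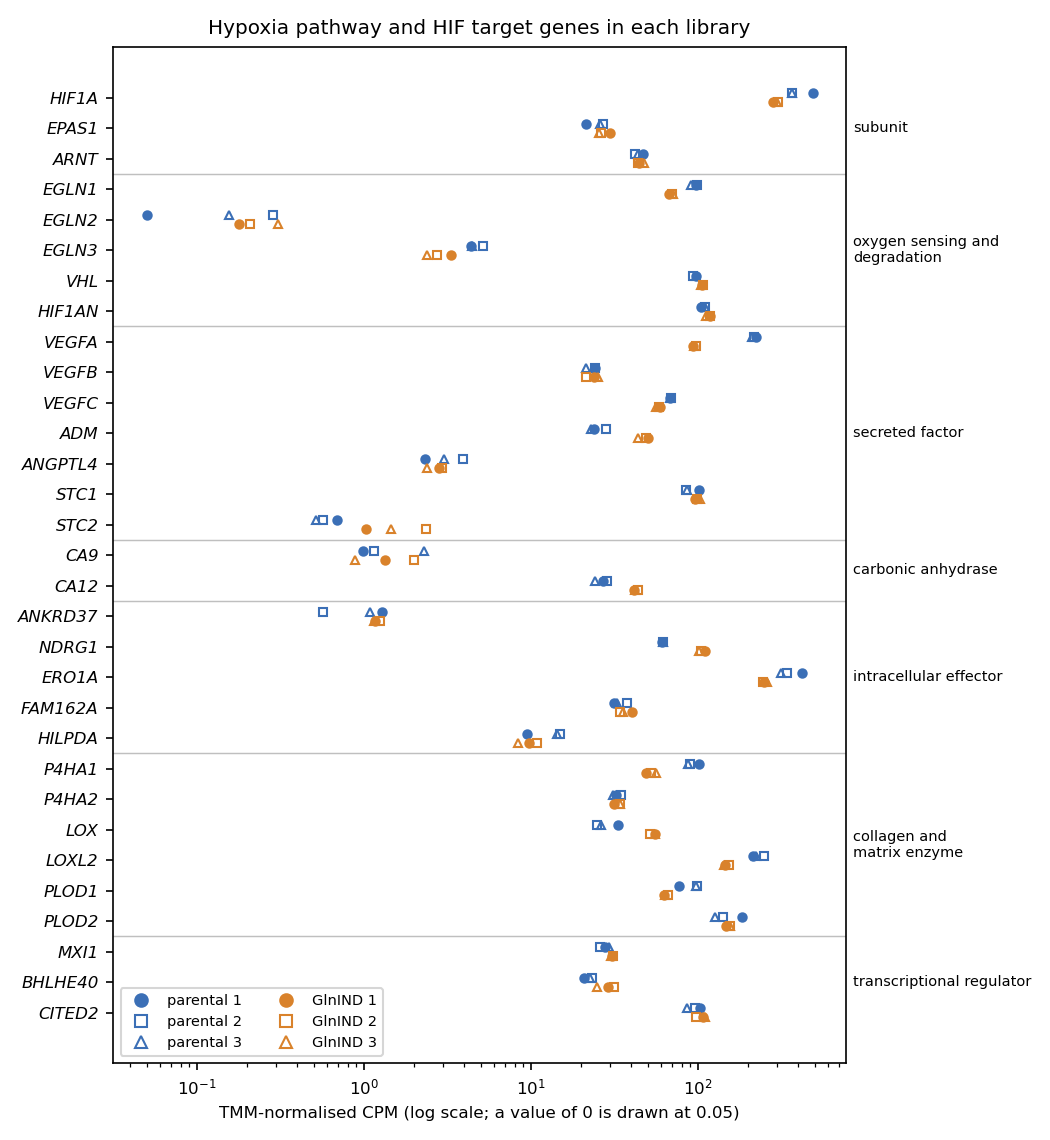
Normalised read counts (TMM-normalised CPM, the count scaled to a common library size, log scale) of the 31 genes in each of the 6 libraries, grouped by role; blue symbols are parental and orange symbols GlnIND libraries, and the count of 0 for EGLN2 in parental 1 is drawn at 0.05. VEGFA separates the groups most clearly among the abundant genes (210.5 to 221.8 against 93.4 to 97.5 CPM), while EPAS1, ARNT and PLOD2 overlap.

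Total counts per library ranged from 18256219 to 24594248. The detection floor of 6 counts in a library equals 0.230 to 0.343 CPM. Parental 1 stood apart from its group: its median absolute log2 difference over all tested genes was 0.23 to parental 2 and 0.257 to parental 3, against 0.11 between parental 2 and 3 and 0.092 to 0.1 among GlnIND libraries. The line's mesenchymal markers were abundant, with VIM at 3818 to 4292 CPM in parental and 6001 to 6143 CPM in GlnIND libraries. They did not move together. VIM and AXL were called higher in GlnIND cells (log2 fold change 0.61 and 0.76), CD44 was called lower (-0.30, edgeR adjusted p = 0.00385) and MSN was not called (0.09, edgeR adjusted p = 0.27). ESR1 and PGR, the hormone receptors, had at most 8 and 4 counts in a library, and ERBB2 lay at 31.5 to 41.4 and 61.8 to 65.2 CPM. Of 4 luminal epithelial markers CDH1 had at most 8 counts in a library, while EPCAM, KRT8 and KRT18 were detected and the sum of the 4 was 505.2 to 601 CPM in parental and 222 to 239.9 CPM in GlnIND libraries. The leukocyte markers summed to 0.229 to 0.728 and 0.583 to 0.691 CPM, with up to 14 counts of CD14 and 6 of PTPRC in a library and CD3E at 0, and the 4 endothelial markers summed to 2.40 to 2.78 and 4.37 to 4.98 CPM, most of it PECAM1. The epithelial and endothelial sums moved with the groups and their part in the results was not tested. In bulk RNA fewer cells with a transcript and less transcript per cell cannot be told apart.

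Promoter windows from RefSeq (build GRCh38.p14, the 250 bases before each annotated start) were available for 25 of the 31 genes and were searched for ACGTG and GCGTG on both strands. A palindromic CACGTG, the site of other basic helix-loop-helix factors, holds ACGTG on both strands and counts as 2 matches. Where a gene has several annotated starts, all of its windows were searched. At least 1 match was found in 21 of the 25 genes (84%), against 64.3% of the 10767 tested genes with a window. ACGTG was found in 13 of the 25 (52%, against 28.6%) and GCGTG in 14 (56%, against 52.6%). Matches stood in the windows of 5 of 5 members called higher, 6 of 7 called lower, 9 of 12 not called and the untested EGLN2. A match is a stretch of letters and not a bound site. Many members were chosen by name as HIF target genes and the windows do not depend on the libraries. The higher share with a match is therefore not a result of these data. The windows shown are those of CA9, the textbook target with an element close to its start, P4HA1, STC2 and ADM. P4HA1 is the member with the largest fall that has a window here, and STC2 and ADM rose. These windows do not carry the range of the group. LOX and BHLHE40, which also rose, held up to 4 ACGTG in a window, and EGLN3, P4HA2, HIF1AN and ARNT held no match. LOX, which has 3 windows, rose slightly more than ADM and is not shown. Capitals mark the matches, which read CACGT or CACGC where they lie on the opposite strand.
CA9: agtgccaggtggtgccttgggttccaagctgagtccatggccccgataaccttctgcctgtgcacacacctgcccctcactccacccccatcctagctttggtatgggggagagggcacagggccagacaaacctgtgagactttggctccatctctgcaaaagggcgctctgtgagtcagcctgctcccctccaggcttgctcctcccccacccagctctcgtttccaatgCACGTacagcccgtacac
P4HA1: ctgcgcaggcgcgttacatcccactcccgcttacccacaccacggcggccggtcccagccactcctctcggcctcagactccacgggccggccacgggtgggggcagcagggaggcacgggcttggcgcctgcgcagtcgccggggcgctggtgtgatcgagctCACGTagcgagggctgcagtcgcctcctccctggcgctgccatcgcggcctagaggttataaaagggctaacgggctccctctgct
STC2: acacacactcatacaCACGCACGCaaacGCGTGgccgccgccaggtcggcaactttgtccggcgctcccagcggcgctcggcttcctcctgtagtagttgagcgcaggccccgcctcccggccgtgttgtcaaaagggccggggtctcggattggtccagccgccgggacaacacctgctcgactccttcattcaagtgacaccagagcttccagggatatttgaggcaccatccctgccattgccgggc
ADM: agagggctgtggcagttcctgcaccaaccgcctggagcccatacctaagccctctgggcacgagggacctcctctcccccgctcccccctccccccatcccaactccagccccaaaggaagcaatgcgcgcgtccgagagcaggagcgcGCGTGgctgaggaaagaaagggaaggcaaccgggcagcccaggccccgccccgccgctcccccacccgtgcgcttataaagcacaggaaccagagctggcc
The CA9 window is chr9:35673678-35673927 on the plus strand, with its match on the opposite strand 18 bases before the start. The P4HA1 window is chr10:73096867-73097116 on the minus strand, with an opposite-strand ACGTG 86 bases before the start. The STC2 window, chr5:173328415-173328664 on the minus strand, holds no ACGTG and 3 GCGTG, all of them 222 to 235 bases before the start. The ADM window is chr11:10304823-10305072 on the plus strand and holds 1 GCGTG at 101 bases before the start.

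Among the subunits (33.3% called, beside 56.3% of all tested genes), only the transcript of HIF1A, the widely expressed oxygen-regulated alpha subunit, passed the test. HIF1A stood at 487.0, 366.0 and 364.2 CPM in parental 1, 2 and 3 and at 282.4, 301.0 and 299.6 CPM in GlnIND 1, 2 and 3. Every GlnIND library lay below every parental library, and parental 1 was the highest of all. The mean fell from 406 ± 70.4 to 294 ± 10.4 CPM (SD, n = 3 each; log2 fold change -0.46 with SE 0.11, adjusted p = 0.00466 by edgeR). Without parental 1 the log2 fold change was -0.32 (adjusted p = 1.72e-08). EPAS1, the alpha subunit also known as HIF-2 alpha, stood at 21.5, 27.2 and 26 CPM in parental 1, 2 and 3 and at 29.7, 26.3 and 25.6 CPM in GlnIND 1, 2 and 3. The groups overlapped, with a log2 fold change of 0.13 and a 95% interval of -0.13 to 0.38 (edgeR adjusted p = 0.362). ARNT, the shared partner, was at 44.2 ± 2.7 and 45.1 ± 2.06 CPM (SD, n = 3 each). Its 95% interval was -0.15 to 0.21 on the log2 scale. Per kilobase of the GENCODE exon union, HIF1A was at 78.8 ± 13.7 RPKM in parental cells and EPAS1 at 3.41 ± 0.409 RPKM (SD, n = 3 each), so HIF1A was the more abundant alpha subunit transcript. In GlnIND cells these levels were 57.1 ± 2.01 and 3.73 ± 0.303 RPKM (SD, n = 3 each), with ARNT at 6.93 ± 0.316 RPKM between them.

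Of the 5 oxygen sensors and degradation factors 2 fell, 2 were not called and 1 was not tested. The share called was 50% of the 4 tested, beside 56.3% of all tested genes, of which 27.9% were called lower. Both that fell are prolyl hydroxylases. EGLN1, the main HIF prolyl hydroxylase of oxygenated cells, stood at 97.1, 99.1 and 91.5 CPM in parental 1, 2 and 3 and at 67.3, 69.8 and 71.2 CPM in GlnIND 1, 2 and 3, without overlap (log2 fold change -0.47 with SE 0.067, adjusted p = 0.000293 by edgeR). EGLN3, a prolyl hydroxylase that is itself a HIF target, was far less abundant and stood at 4.41, 5.15 and 4.42 CPM in parental 1, 2 and 3 and at 3.32, 2.75 and 2.38 CPM in GlnIND 1, 2 and 3. All GlnIND values were again below all parental values (log2 fold change -0.73 with SE 0.19, adjusted p = 0.00821 by edgeR). Per kilobase of exon, EGLN1 was at 13.2 ± 0.544 and EGLN3 at 0.633 ± 0.0574 RPKM in parental cells (SD, n = 3 each). EGLN2, the third prolyl hydroxylase, had 8 counts over the parental and 17 over the GlnIND libraries and was not tested. Its readthrough row RAB4B-EGLN2 and the neighbouring row RAB4B were at 0 counts in every library. Reads shared by overlapping rows can go uncounted, and how much EGLN2 transcript the cells held cannot be read from these rows.

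VHL, the substrate receptor that recognises hydroxylated HIF for destruction, stood at 97.7, 94.2 and 97.6 CPM in parental 1, 2 and 3 and at 106.3, 107.7 and 104.7 CPM in GlnIND 1, 2 and 3. The GlnIND libraries were all slightly above the parental ones, and the difference missed the threshold (log2 fold change 0.14 with SE 0.061, adjusted p = 0.0766 by edgeR, 95% interval 0.003 to 0.27). VHL lies on chromosome 3, and its 40 nearest tested genes had a median log2 fold change of 0.40. With that shift of the neighbourhood removed VHL turned to -0.26 (adjusted p = 0.00604), and it passed in the other direction with upper-quartile factors (log2 fold change 0.23, adjusted p = 0.00801), with library totals (0.29, 0.00212) and without parental 1 (0.14, 0.0235). HIF1AN, the asparaginyl hydroxylase, stood at 103.8, 109.7 and 110.0 CPM in parental 1, 2 and 3 and at 118.2, 118.2 and 111.4 CPM in GlnIND 1, 2 and 3, again without overlap (log2 fold change 0.10 with SE 0.064, adjusted p = 0.186 by edgeR), and passed under upper-quartile scaling (0.20, 0.0252) and library totals (0.26, 0.00724). EGLN1 lies among neighbours with a median of -0.20, and with their shift removed it stood at -0.27 and remained called (adjusted p = 0.00838).

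**Figure D2:**
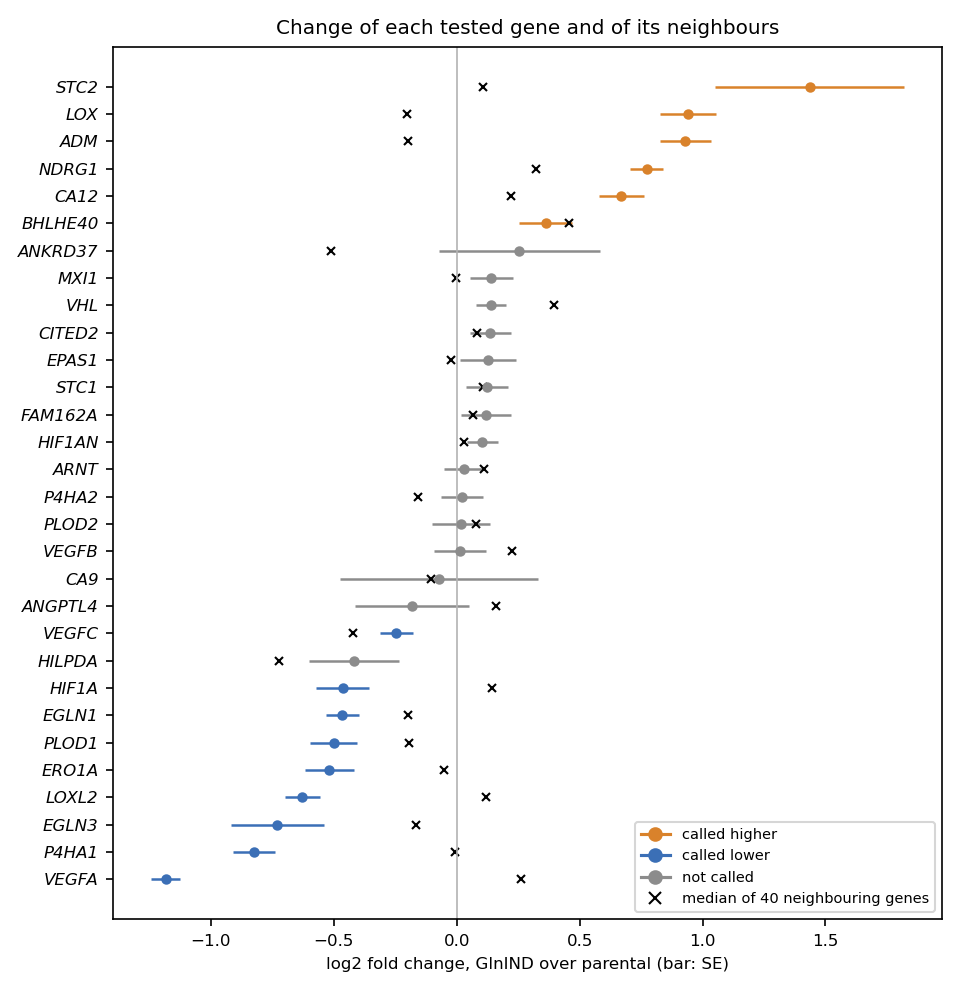
Log2 fold change of GlnIND over parental for the 30 tested genes with its SE (bar), and the median log2 fold change of the 40 nearest tested genes on the same chromosome (cross). VEGFA, LOX and ADM moved against their neighbours, while BHLHE40 and its neighbours stand at 0.36 and 0.46.

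Of 7 secreted factors 2 rose, 2 fell and 3 were not called. The share called was 57.1%, beside 56.3% of all tested genes. VEGFA stood at 221.8, 216.7 and 210.5 CPM in parental 1, 2 and 3 and at 93.4, 97.5 and 94.8 CPM in GlnIND 1, 2 and 3. The spread within each group was far smaller than the gap between them, and VEGFA was 2.27-fold lower in GlnIND cells (log2 fold change -1.18 with SE 0.06, adjusted p = 4.42e-07 by edgeR). This was the largest fall of the group, and the neighbouring genes had a median of 0.26, so that with their shift removed the log2 fold change was -1.44. VEGFC, the lymphatic growth factor of the same family, stood at 68, 69.2 and 68.5 CPM in parental 1, 2 and 3 and at 59.1, 58.3 and 56.2 CPM in GlnIND 1, 2 and 3 and also fell (log2 fold change -0.25 with SE 0.067, adjusted p = 0.0108 by edgeR). This small change was lost with upper-quartile factors (log2 fold change -0.15, adjusted p = 0.0725) and with library totals (-0.092, 0.255). Its sign turned once the shift of its neighbours was taken out (0.18, 0.0522). VEGFB, a family member that is not a classical hypoxia-induced gene, overlapped between groups at 23.3 ± 1.61 and 23.5 ± 2.05 CPM (SD, n = 3 each). Its 95% interval was -0.22 to 0.25 on the log2 scale. The difference between family members was not tested.

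ADM ran the other way. It stood at 24.1, 28.4 and 22.9 CPM in parental 1, 2 and 3 and at 50.6, 48.7 and 44.1 CPM in GlnIND 1, 2 and 3, and every GlnIND library was above every parental library (log2 fold change 0.93 with SE 0.1, adjusted p = 5.69e-05 by edgeR). The genes around ADM had a median of -0.20. STC2 rose from the edge of detection, at 0.694, 0.572 and 0.52 CPM in parental 1, 2 and 3 and at 1.03, 2.37 and 1.46 CPM in GlnIND 1, 2 and 3. It was 2.7-fold higher (log2 fold change 1.44 with SE 0.39, adjusted p = 0.00998 by edgeR), and GlnIND 2 was the highest library. Without GlnIND 2 the log2 fold change was 1.05 (adjusted p = 0.047). Its paralog STC1, also a secreted stanniocalcin, was at 91 ± 9.7 and 99.1 ± 3.42 CPM (SD, n = 3 each; log2 fold change 0.12 with SE 0.084, adjusted p = 0.237 by edgeR). Parental 1 was at 102.1 CPM, above 2 of the GlnIND libraries, and without it STC1 passed (0.20, adjusted p = 0.00132). The same held under upper-quartile scaling (0.21, 0.0426) and library totals (0.28, 0.012). ANGPTL4, a secreted inhibitor of lipoprotein lipase, stood at 2.33, 3.95 and 3.02 CPM in parental 1, 2 and 3 and at 2.83, 2.96 and 2.38 CPM in GlnIND 1, 2 and 3, with overlap and a 95% interval of -0.70 to 0.34 on the log2 scale.

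Of the carbonic anhydrases, which buffer pH at the cell surface, CA12 rose and CA9 was not called, and the difference between their changes was not tested. CA12 stood at 27.2, 28.7 and 24.1 CPM in parental 1, 2 and 3 and at 41.3, 43.8 and 42 CPM in GlnIND 1, 2 and 3, without overlap, and was 1.59-fold higher in GlnIND cells (log2 fold change 0.67 with SE 0.091, adjusted p = 0.000201 by edgeR). CA9, among the most used transcript markers of hypoxia, had 20, 20 and 44 counts in the parental and 30, 48 and 23 in the GlnIND libraries, or 1.47 ± 0.708 and 1.41 ± 0.56 CPM (SD, n = 3 each). The groups overlapped fully, and the 95% interval ran from -0.98 to 0.83 on the log2 scale, so a change of either sign within it remains possible. CA12 lies among neighbours with a median of 0.22 and its own value was 0.45 with their shift removed (adjusted p = 0.00274).

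The collagen and matrix enzymes held 4 called genes of 6 (66.7%, beside 56.3% of all tested genes), of which LOX rose and P4HA1, LOXL2 and PLOD1 fell. P4HA1, the catalytic subunit of the prolyl hydroxylase that stabilises the collagen helix, stood at 101.2, 90 and 87.8 CPM in parental 1, 2 and 3 and at 48.7, 52.4 and 56.3 CPM in GlnIND 1, 2 and 3 and was 1.77-fold lower (log2 fold change -0.83 with SE 0.085, adjusted p = 3.6e-05 by edgeR). The neighbouring genes had a median of -0.005. Its paralog P4HA2 was not called, at 32.7 ± 1.75 and 33.2 ± 1.61 CPM (SD, n = 3 each), with a 95% interval of -0.17 to 0.21 on the log2 scale. The lysyl oxidases diverged. LOX stood at 33.4, 24.9 and 26.1 CPM in parental 1, 2 and 3 and at 55.4, 51.6 and 55.1 CPM in GlnIND 1, 2 and 3 and was 1.92-fold higher (log2 fold change 0.94 with SE 0.11, adjusted p = 9.41e-05 by edgeR), while LOXL2, a related secreted oxidase, stood at 213.5, 247.7 and 223.4 CPM in parental 1, 2 and 3 and at 145.4, 153.6 and 144.1 CPM in GlnIND 1, 2 and 3 and was 1.54-fold lower (log2 fold change -0.63 with SE 0.072, adjusted p = 6.66e-05 by edgeR). Neither overlapped between groups, and in both cases the neighbouring genes had medians of the opposite sign (-0.20 for LOX and 0.12 for LOXL2).

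PLOD1 and PLOD2 are lysyl hydroxylases that prepare collagen for cross-linking. PLOD1 stood at 77.6, 98.7 and 97 CPM in parental 1, 2 and 3 and at 62.7, 66.5 and 64.1 CPM in GlnIND 1, 2 and 3 (log2 fold change -0.50 with SE 0.096, adjusted p = 0.00159 by edgeR), with neighbours at a median of -0.20, and at a log2 fold change of -0.30 once their shift was removed (adjusted p = 0.0249). PLOD2 stood at 183.6, 142.2 and 127.2 CPM in parental 1, 2 and 3 and at 147.4, 155.1 and 156.1 CPM in GlnIND 1, 2 and 3. Parental 1 lay above every other library and both other parental libraries below every GlnIND library, so the fit over all libraries gave 0.02 (95% interval -0.24 to 0.28, edgeR adjusted p = 0.907). Without parental 1 the log2 fold change was 0.17 and passed (adjusted p = 0.00321).

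Among intracellular effectors NDRG1 rose and ERO1A fell (40% called, beside 56.3% of all tested genes). NDRG1, a stress-responsive cytoplasmic protein long used as a hypoxia marker, stood at 61.2, 61.9 and 62.2 CPM in parental 1, 2 and 3 and at 110.4, 104.8 and 101.3 CPM in GlnIND 1, 2 and 3 and was 1.71-fold higher (log2 fold change 0.77 with SE 0.066, adjusted p = 1.14e-05 by edgeR). Its neighbours had a median of 0.32, and NDRG1 stood at 0.45 with their shift removed (adjusted p = 0.000443). ERO1A, the endoplasmic reticulum oxidase that drives disulfide formation, stood at 419.4, 344.1 and 314.1 CPM in parental 1, 2 and 3 and at 247.5, 246.0 and 259.2 CPM in GlnIND 1, 2 and 3. It was 1.43-fold lower (log2 fold change -0.52 with SE 0.098, adjusted p = 0.00148 by edgeR), and parental 1 was again the highest library. HILPDA, a lipid droplet protein that inhibits lipolysis, stood at 9.47, 15 and 14.3 CPM in parental 1, 2 and 3 and at 9.73, 10.9 and 8.37 CPM in GlnIND 1, 2 and 3. Here parental 1 fell within the GlnIND range while parental 2 and 3 were above it (log2 fold change -0.42 with SE 0.18, adjusted p = 0.0777 by edgeR). HILPDA passed without parental 1 (-0.61, adjusted p = 3.5e-05) and with DESeq2 (-0.43, 0.0495). Its neighbours on chromosome 7 had a median of -0.72, and with that removed it stood at 0.30 (adjusted p = 0.199). FAM162A, a mitochondrial protein of hypoxic cell death, was at 34 ± 3.17 and 36.9 ± 3.22 CPM (SD, n = 3 each; edgeR adjusted p = 0.346), and passed with library totals (0.27, 0.0489). ANKRD37, an ankyrin repeat protein and common member of hypoxia signatures, had 10 to 30 counts in a library, overlapped between groups and had a 95% interval of -0.48 to 0.99 on the log2 scale.

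Of the 3 transcriptional regulators (33.3% called, beside 56.3% of all tested genes) BHLHE40, a repressor of the circadian and hypoxic responses, was called. It stood at 20.8, 23.1 and 22.6 CPM in parental 1, 2 and 3 and at 29, 31.4 and 25 CPM in GlnIND 1, 2 and 3 (log2 fold change 0.36 with SE 0.11, adjusted p = 0.0168 by edgeR). Without GlnIND 1 the log2 fold change was 0.34 with adjusted p = 0.0663, and without GlnIND 2 0.28 with adjusted p = 0.0949. In these fits the share of all genes called was 47% and 46%. Like VHL it lies on chromosome 3 among genes that were higher (median 0.46), and with their shift removed its sign turned (-0.096, adjusted p = 0.491). MXI1, an antagonist of MYC, stood at 27.9, 26 and 29.5 CPM in parental 1, 2 and 3 and at 30.6, 31.1 and 30.2 CPM in GlnIND 1, 2 and 3, without overlap, with a log2 fold change of 0.14 (SE 0.087, adjusted p = 0.194 by edgeR). CITED2, which competes with HIF for its coactivators, overlapped between groups at 95.5 ± 8.32 and 105 ± 6.56 CPM (SD, n = 3 each; log2 fold change 0.14 with SE 0.083, adjusted p = 0.185 by edgeR), and passed without parental 1 (0.19, adjusted p = 0.00442). Under upper-quartile scaling and under library totals, MXI1 stood at 0.23 and 0.29 (adjusted p = 0.0441 and 0.0166) and CITED2 at 0.23 and 0.29 (adjusted p = 0.033 and 0.00994).

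Parental 1 differed from parental 2 and 3 at several of these genes, in both directions. Of the 30 tested members 12 were above both other parental libraries in parental 1, 12 were below both and 6 lay between. The same shares over all tested genes were not counted, so these numbers do not set the members apart from other genes. The ratio of parental 1 to the mean of the other 2 was 1.36 for PLOD2, 1.33 for HIF1A, 1.31 for LOX and 1.27 for ERO1A. Among genes with few counts it reached 1.55 for ANKRD37 and 0.578 for CA9. It was 0.646 for HILPDA, 0.67 for ANGPTL4, 0.793 for PLOD1 and 0.809 for EPAS1. Without parental 1, 10 members were called higher and 10 lower, or 66.7% of the 30, against 65.2% of all genes tested in that fit (32.3% higher and 32.9% lower). The members that joined were VHL, PLOD2, STC1 and CITED2 among the higher and HILPDA among the lower genes.

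**Figure D3:**
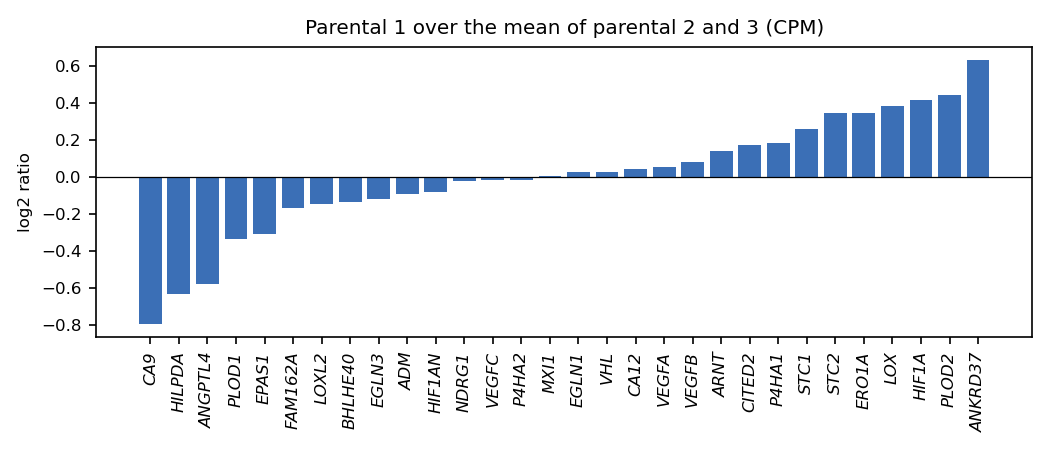
Log2 ratio of CPM in parental 1 to the mean of parental 2 and 3 for the 30 tested genes, ordered by ratio. Bars above 0 are genes higher in parental 1, such as PLOD2 (ratio 1.36), and bars below 0 are genes lower in it, such as HILPDA (0.646).

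The split between directions also rested on the scaling of the libraries. With upper-quartile factors 11 members were higher and 8 lower (34% and 23% of all tested genes, 57% together). With library totals 12 were higher and 8 lower (38.4% and 20.1%, 58.5% together), so that the share of called members that were higher went from 40% to 57.9% and 60%. Over all called genes that share went from 50.5% to 59.7% and 65.6%, and the median log2 fold change of all tested genes from 0.032 to 0.184 with library totals. A total of 13 of the 15 called members, all but VEGFC and BHLHE40, kept their direction and their call under each of the 15 alternatives. The same share over all called genes was not counted, so this number does not set the members apart from other genes.

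**Figure D4:**
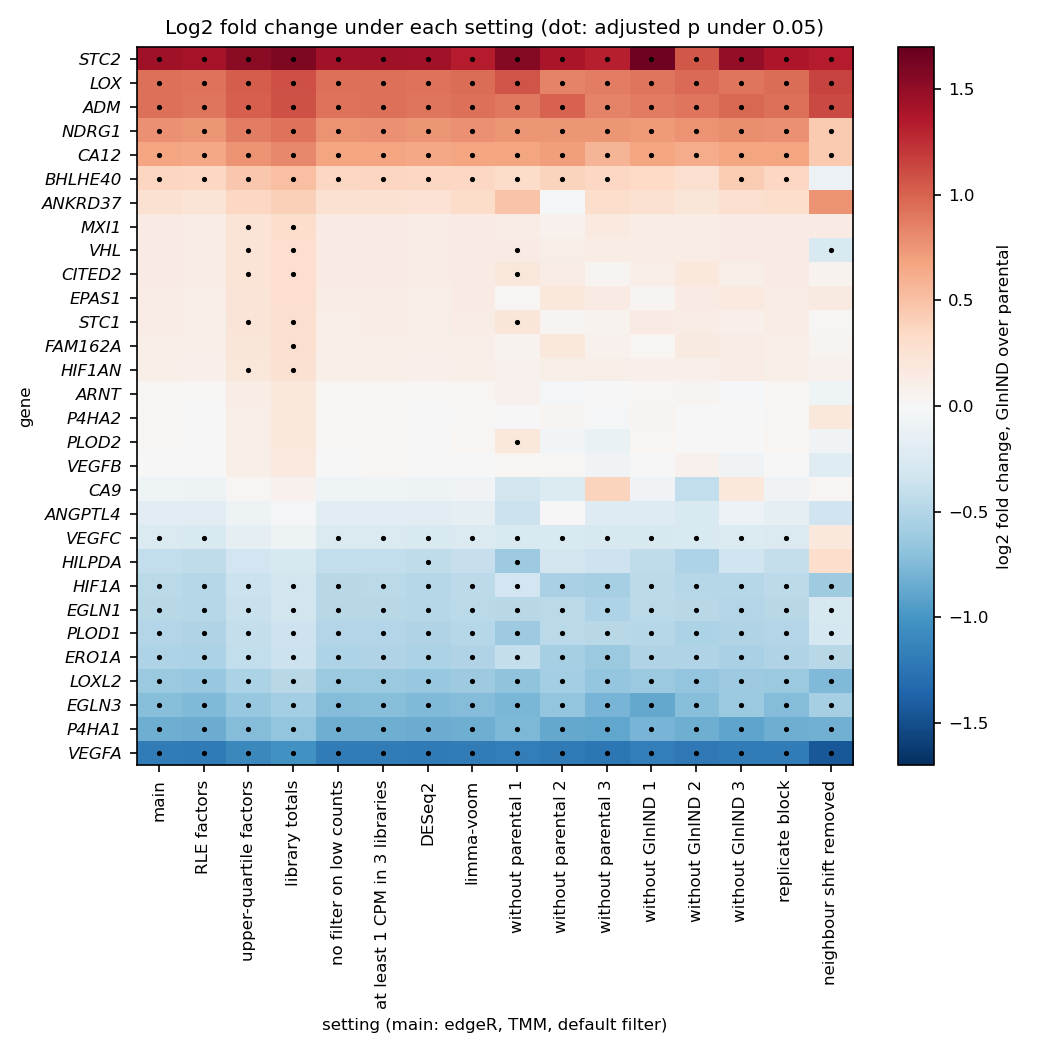
Log2 fold change (colour) of the 30 tested genes under the main fit and 15 alternatives, with a dot where the adjusted p was under 0.05. The rows from STC2 to CA12 and from HIF1A to VEGFA carry a dot in every column, and of the genes between them VEGFC, HILPDA and others carry it in some columns and EPAS1, ARNT and others in none.

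Other genes of the pathway were taken from 6 further lists. In the glycolysis and glucose uptake list, the best known metabolic HIF targets, 10 fell out of 21 tested genes, 1 rose and 10 missed the threshold. The share called lower was 47.6%, beside 27.9% of all genes, and the median log2 fold change was -0.30, beside 0.032. With library totals 6 genes of this list were higher and 8 lower, with a median of -0.149 beside 0.184 over all genes, and with upper-quartile factors 3 were higher and 9 lower. The lowest were TPI1, a glycolytic isomerase, which fell by 0.92 (SE 0.081), and PDK1, the kinase that keeps pyruvate out of the mitochondria, which fell from 40.1 ± 1.32 to 21.8 ± 1.62 CPM (SD, n = 3 each; log2 fold change -0.88 with SE 0.09, adjusted p = 3.44e-05 by edgeR). ALDOC, an aldolase, was the gene that rose (log2 fold change 0.40 with SE 0.14, adjusted p = 0.0289 by edgeR), and with any library other than parental 1 left out its log2 fold change was 0.32 to 0.44 and its edgeR adjusted p 0.0589 to 0.117. TPI1 and PDK1 lie among neighbours with medians of -0.40 and -0.44, and stood at -0.52 and -0.43 with that shift removed.

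Among 29 tested genes of the list of further non-glycolytic targets 11 rose, 7 fell and 11 missed the threshold (median -0.017). The share called was 62.1%, beside 56.3% of all genes. CXCR4, a chemokine receptor of metastatic cells, rose from 1.05 ± 0.352 to 42.2 ± 2.14 CPM (SD, n = 3 each; log2 fold change 5.32 with SE 0.17, adjusted p = 4.11e-08 by edgeR), which corresponds to 60 counts over the parental and 3050 over the GlnIND libraries. RORA, a nuclear receptor, rose by 1.28 on the log2 scale (SE 0.15). PPP1R3C, a glycogen-targeting phosphatase subunit, fell from 249 to 10 counts per group, and TFRC, the transferrin receptor for iron uptake, fell from 1455 ± 39.2 to 548 ± 12.1 CPM (SD, n = 3 each; log2 fold change -1.41 with SE 0.059, adjusted p = 1.51e-07 by edgeR). Without GlnIND 2, 5 genes of this list (and 22.5% of all genes) were called higher, and without parental 1, 11 (and 32.9% of all genes) were called lower. EPO, the kidney hormone of red cell production, had at most 2 counts in a library. MIF was at 0 counts in all libraries. Reads shared by overlapping rows can go uncounted, so whether the cells held MIF transcript cannot be read from this row.

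In the list of HIF paralogs, cofactors and degradation factors 6 of 18 tested genes rose, 3 fell and 9 missed the threshold (median 0.14), so that 50% were called, beside 56.3% of all genes. ARNT2, the paralog of ARNT, rose from 12.8 ± 2.44 to 28.6 ± 0.612 CPM (SD, n = 3 each; log2 fold change 1.16 with SE 0.14, adjusted p = 7.87e-05 by edgeR), and P4HTM, a membrane prolyl hydroxylase that also acts on HIF, rose by 1.25 (SE 0.22). SIAH1, SIAH2, LIMD1 and HSP90AA1 were the others that rose, by 0.48, 0.31, 0.62 and 0.22 on the log2 scale. The medians of their neighbours were 0.80, 0.001, 0.25 and 0.35, so SIAH1 and HSP90AA1 rose less than the genes around them. ELOC, the elongin subunit that links VHL to its ligase, fell from 128 ± 0.961 to 78.6 ± 2.12 CPM (SD, n = 3 each; log2 fold change -0.71 with SE 0.061, adjusted p = 1.2e-05 by edgeR). SENP1, a SUMO protease, and OS9 fell by 0.51 and 0.50. The other ligase parts tested, ELOB, CUL2 and RBX1, were not called (edgeR adjusted p = 0.423, 0.0727 and 0.118), and HIF3A, the third alpha subunit, was at 0 counts. With the neighbour shift removed the median of this list was -0.14, and without GlnIND 1 the genes that rose numbered 3, in a fit that called 23% of all genes higher.

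Collagen modification relatives had called genes in both directions, as every list did, with 4 of 14 higher, 7 lower and 3 not called (median -0.26). The share called was 78.6%, beside 56.3% of all tested genes and 50% of the tested members. LOXL1 and LOXL4, lysyl oxidases like LOX, rose by 1.67 and 1.25 (SE 0.14 and 0.11), and CRTAP and P4HA3 were the others that rose, P4HA3 from 2 to 52 counts per group. CRTAP rose by 0.40, among neighbours with a median of 0.42. P3H3, a collagen prolyl 3-hydroxylase, fell from 266 to 8 counts per group, and PLOD3, the third lysyl hydroxylase, fell from 97.2 ± 8.78 to 54 ± 3.67 CPM (SD, n = 3 each; log2 fold change -0.85 with SE 0.088, adjusted p = 3.82e-05 by edgeR). Of the oxidases tested in both lists, LOX, LOXL1 and LOXL4 were called higher, LOXL2 lower, and LOXL3 was not called (-0.25, edgeR adjusted p = 0.339). Of the lysyl hydroxylases PLOD1 and PLOD3 were called lower and PLOD2 was not called. In the pH list 1 of 7 tested genes rose, 3 fell and 3 were not called (median -0.17), a share called of 57.1%. SLC4A4, a bicarbonate transporter, rose by 1.29 (SE 0.16), CA2 and CA13, cytosolic carbonic anhydrases, fell by 1.86 and 1.21 (SE 0.24 and 0.12), and BSG, the chaperone of lactate transporters, fell by 0.59. CA2 and CA13 lie among the same lowered neighbours (median -0.57 for each).

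**Figure D5:**
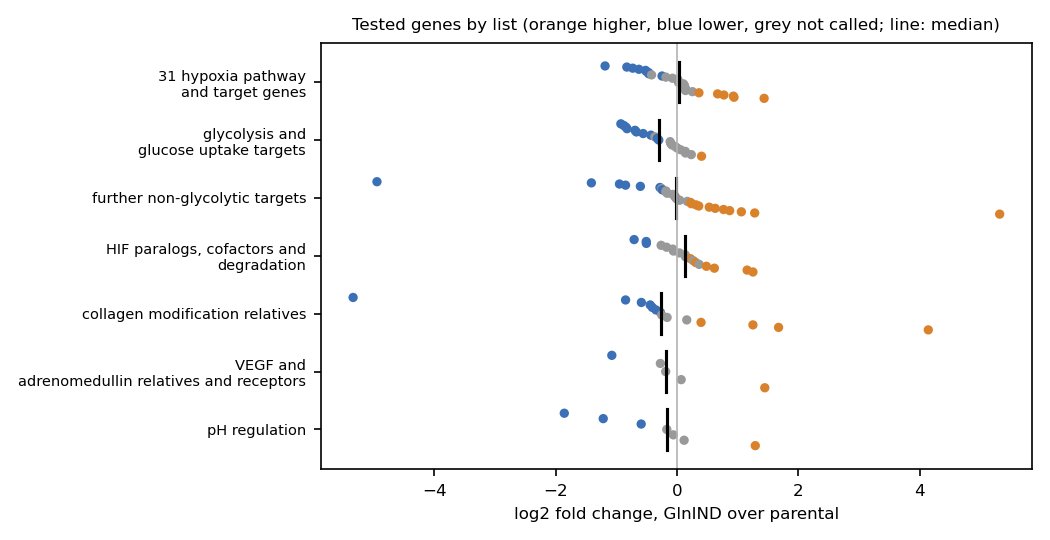
Log2 fold change of GlnIND over parental for each tested gene of the 31 and of 6 further lists, coloured by call, with the median of each list as a black line. The median lies at 0.027 for the 30 tested members and at -0.30 for the glycolysis list, and every list holds genes in both directions.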

How the data were processed

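Raw counts of reads for each gene symbol, as the authors deposited them, came as a table for each library and a matrix. Per the submitters' processing notes, FastQC, STAR, featureCounts and DESeq were used with build hg19. Not given in the sources used here are the annotation, the handling of strand and that of reads with several alignments, so overlapping, antisense and near-identical genes may share or lose counts. The matrix held the values of the tables with the names of replicates 1 and 3 exchanged in each group, and numbers here follow the tables.

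The members, gene lists and tests were chosen with earlier results of these data known. The test was the two-sided quasi-likelihood F test of edgeR 4.0.16 (R 4.3.3) with group alone in the model, TMM factors and filterByExpr (minimum count 10, minimum total 15), and adjusted by Benjamini-Hochberg over 13949 genes. The fits were checked on simulated data. An exact permutation over the libraries could not go below p = 0.1. SE come from the F statistic and 95% intervals from its degrees of freedom. CPM are TMM-normalised, and RPKM divide them by GENCODE exon unions, which are not the annotation used for counting. In each library 60.6% to 65% of genes with low counts had an even count, a sign that both reads of a pair were counted, so the floor was 6 counts (3 read pairs), for counting error only. Chromosome neighbours came from the RefSeq gene order, matched for 97.7% of symbols. Further lists named their 2 highest and 2 lowest called genes with a mean of at least 1 CPM, and any gene that a small count refers to, and other genes of these lists were picked after their values were seen. Alternatives were RLE and upper-quartile factors, library totals, no filter, 1 CPM in 3 libraries, DESeq2 1.42.0, limma-voom (limma 3.58.1), each library left out, the replicate number as a block, and removal of the median change of 40 neighbours, taken as known.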

Additional observations from a re-analysis of the deposited data

How the results depend on the processing

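Of 450 member values under 15 alternatives, 400 kept direction and call and 29 turned sign. Of those that kept direction, 4 lost the call and 17 gained it. Some sign turns also changed the call. The same numbers over all tested genes were not counted. With the neighbour shift removed VEGFC and BHLHE40 were no longer called (edgeR adjusted p = 0.0522 and 0.491), and VHL was called lower (edgeR adjusted p = 0.00604). Where no value shows it, the cause was not tested. With upper-quartile factors 11 members were higher, 3 glycolysis genes rose (list median -0.21), the further targets had a median of 0.075 and 2 receptor list genes rose. With library totals 12 members were higher (median 0.181, and 0.184 over all genes), 6 glycolysis, 2 receptor list and 2 pH genes rose, and the medians were -0.149 for glycolysis, 0.138 for further targets, 0.289 for paralogs and cofactors, -0.111 for collagen relatives, -0.031 for receptors and -0.014 for pH genes. Over all tested genes 34% were higher and 23% lower with upper-quartile factors, and 38.4% and 20.1% with library totals. With no filter 2 receptor list genes fell, since more genes were tested. With the neighbour shift removed 2 glycolysis genes (median -0.196) and 2 receptor list genes rose. The medians were then -0.14 for paralogs and cofactors and -0.483 for pH genes. That setting called 23.6% of all tested genes higher and 25.5% lower. Fits that left out 1 library called 22.3% to 32.3% of all tested genes higher and 23.6% to 32.9% lower. The highest shares came without parental 1, the fit that also gave 10 members higher and 11 further targets lower. Leaving out 1 library gave 5 to 10 members higher, 0 to 2 glycolysis genes higher (median -0.394 to -0.215), 5 to 12 further targets higher and 5 to 11 lower, 3 to 7 paralog and cofactor genes higher, a collagen median of -0.377 to -0.214, 1 to 2 receptor list genes lower and a pH median of -0.577 to -0.016.

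Signs turned mostly among uncalled members. Leaving out 1 library, ARNT ranged from -0.026 to 0.07, VEGFB from -0.066 to 0.07, CA9 from -0.423 to 0.373, ANKRD37 from -0.023 to 0.488, P4HA2 from -0.034 to 0.053, ANGPTL4 from -0.364 to 0.007 and PLOD2 from -0.115 to 0.174. With the neighbour shift removed ARNT stood at -0.079, VHL at -0.257, VEGFB at -0.212, VEGFC at 0.176, CA9 at 0.033, BHLHE40 at -0.096, PLOD2 at -0.062 and HILPDA at 0.304. VEGFB stood at -0.003 with RLE factors and with DESeq2, and CA9 at 0.017 under upper-quartile scaling and 0.077 under library totals. The labels do not say whether replicate numbers pair libraries. Same-numbered libraries had correlations of -0.063, 0.03 and -0.037, which cannot settle it with 3 libraries in a group. With the replicate block 6 members were higher and 9 lower, as without it, while 7303 genes were called over the whole table. STC2 had 10 to 14 counts in the parental libraries. Low counts limit what can be said of it and of CA9 and ANKRD37, which had at most 48 and 30 counts in a library. EGLN2 had at most 8, and there reads shared by overlapping rows may have gone uncounted.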

Other observations

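The receptors through which the secreted members act were partly undetected. In the list of relatives and receptors of VEGF and adrenomedullin 5 of 11 genes were tested, of which 1 rose, 1 fell and 3 were not called (40% called, beside 56.3% of all genes). NRP2, a co-receptor of VEGFC and semaphorins, rose from 15.8 ± 0.977 to 43.1 ± 2.31 CPM (SD, n = 3 each; log2 fold change 1.45 with SE 0.093, adjusted p = 1.93e-06 by edgeR), and PGF, the placental growth factor of the VEGF family, fell from 8.43 ± 1.38 to 4.01 ± 0.751 CPM (SD, n = 3 each; log2 fold change -1.07 with SE 0.19, adjusted p = 0.00103 by edgeR). NRP1, a co-receptor of VEGFA, was abundant and stood at 443 ± 16.7 and 465 ± 9.6 CPM (SD, n = 3 each), with a 95% interval of -0.063 to 0.20 on the log2 scale. KDR, a VEGFA receptor best known from endothelium, was detected at 8.39 ± 1.24 and 7.37 ± 0.559 CPM (SD, n = 3 each; edgeR adjusted p = 0.315). FLT1 had 8, 10 and 0 counts in the parental libraries and 0 in each GlnIND library, and VEGFD, FLT4, RAMP2 and RAMP3 were at 0 counts in every library. CALCRL, the adrenomedullin receptor, had at most 6 counts in a library.

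The tables also hold rows for antisense transcripts at HIF1A. HIF1A-AS1 and HIF1A-AS2 had 14 and 38 counts over the parental and 8 and 15 over the GlnIND libraries, and HIF1A-AS3 had 148 and 223. Whether the counting used strand is not given in the sources used here, so reads of HIF1A and of these rows cannot be told apart.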
